A study of Mus musculus with 10 samples.

Results

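The genes described here encode the subunits of the translation initiation factor eIF3 and of the 3 nuclear RNA polymerases, compared between mouse cochleae of 2 genotypes. They were chosen by symbol: all protein-coding genes of the deposited count table named Eif3a to Eif3m, Polr1a to Polr1h, Polr2a to Polr2m or Polr3a to Polr3k, which gave 42 of 54532 genes in the table. There were 14 eIF3 genes, 5 polymerase I genes, 13 polymerase II genes and 10 polymerase III genes. All 42 had at least 10 counts in each of the 10 libraries, where the rule asked for 5 libraries, and all were among the 17937 genes tested. The member with the fewest counts, Eif3j2, had 22 to 60. Eif3l and Polr2f, which lie beside Sox10, were picked because they were higher in one genotype, so their differences are given as a description with no test, and the tests concern the other 40 subunits.

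The tissue was the soft part of the cochlea of female mice on postnatal day 1, with both ears of an animal combined, so that each library is 1 animal. All animals carried Esrrgfl/fl, in which loxP sites flank the estrogen-related receptor gene Esrrg. The 5 control libraries had this genotype alone, and the other 5 carried Sox10-Cre in addition (Esrrgfl/fl;Sox10-Cre), and are labelled cKO, for conditional knockout. Sox10-Cre drives the recombinase with regulatory sequence of Sox10, a gene of otic epithelium, glia and melanocytes; the labels do not say how the allele was made. Every animal with Cre also had the floxed gene, and no group carried Cre without it, so effects of the Cre allele and of the loss of Esrrg cannot be told apart.

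Libraries held about 33487000 to 41780000 counts. Esrrg itself was higher in the libraries labelled cKO, at 2768 to 3632 counts against 1725 to 2414 in controls, a log2 fold change of 0.62 (SE 0.117, edgeR adjusted p = 0.0259). Counts over the whole gene cannot show whether its floxed part was deleted. Since the counts of the targeted gene were higher, and not lower, directions are given for "the libraries labelled cKO". Markers of sensory and supporting cells summed to 1803 to 2511 CPM (counts scaled to the library size) in controls and 2327 to 2537 CPM in the libraries labelled cKO. Of other cell types, 4 of 4 tested brain markers were lower (16.3 to 22.0 against 6.20 to 9.25 CPM summed), with 3 of them past the test, and 4 of 4 red blood cell markers were lower without passing it (288 to 1177 against 172 to 551 CPM). Glial markers summed to 762 to 878 against 562 to 826 CPM, with 3 lower and 2 higher. Markers of melanocytes (4 of 4), mesenchyme (3 of 3) and marginal cells (2 of 2) were higher. Those of spiral ganglion neurons (2 lower, 2 higher) and cartilage (1 lower, 1 higher) were split. None of the markers in these 5 lists passed the test. Of 3 skeletal muscle markers, 2 had fewer than 10 counts in every library. The part of these markers in the results below was not tested. Control 2 stood apart from the other controls for many subunits, as given beside the results. In whole tissue, fewer cells of a type and less RNA per cell cannot be told apart.

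eIF3 is the largest of the translation initiation factors. It binds the small ribosomal subunit, helps to recruit messenger RNA through the cap-binding factors, and keeps the ribosomal subunits apart until the start codon is found. The subunits a, c, e, f, h, k, l and m form a ring-like core, and l and k contact each other at one end of it. RNA polymerase I makes most of the ribosomal RNA, polymerase II makes messenger RNA, and polymerase III makes transfer RNA and the smallest ribosomal RNA. Each has its own large catalytic subunits, and all of them share a set of small subunits (Polr2e, Polr2f, Polr2h, Polr2k and Polr2l). All cells need these complexes.

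The promoter windows of the 2 picked genes are shown because these genes were high together and lie near each other on chromosome 15. Each runs from 250 bases before to 50 bases after the RefSeq start on the plus strand of GRCm38.p6. Capitals mark matches to CCGGAAG or its reverse CTTCCGG, the core recognised by ETS transcription factors. Of the motifs searched, this was the only motif found in both windows, and matches to the others are not marked.

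Eif3l (chr15:79074973-79075272): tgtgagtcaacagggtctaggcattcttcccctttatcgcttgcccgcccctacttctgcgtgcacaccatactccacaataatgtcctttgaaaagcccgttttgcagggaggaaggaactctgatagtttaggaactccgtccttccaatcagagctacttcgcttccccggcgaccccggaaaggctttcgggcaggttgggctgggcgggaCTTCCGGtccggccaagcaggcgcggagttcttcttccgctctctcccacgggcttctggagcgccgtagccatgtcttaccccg

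Polr2f (chr15:79141075-79141374): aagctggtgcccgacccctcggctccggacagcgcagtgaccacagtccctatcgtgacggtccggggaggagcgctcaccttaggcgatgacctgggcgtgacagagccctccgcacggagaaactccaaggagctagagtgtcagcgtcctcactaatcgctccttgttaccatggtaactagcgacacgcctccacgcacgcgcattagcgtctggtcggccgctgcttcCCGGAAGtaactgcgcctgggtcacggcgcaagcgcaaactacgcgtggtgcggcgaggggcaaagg

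The window of Polr2f also spans the annotated start of 1700088E04Rik on the other strand, at 79141253. Both windows held 1 such match, beginning 35 bases before the RefSeq start in Eif3l and 17 bases before it in Polr2f. In the annotation used for gene positions these genes start further upstream, at 79075179 and 79141009. Both matches therefore lie inside the genes as annotated there. The whole window of Polr2f does so too, and holds no sequence upstream of that annotated start. The RefSeq table held 34 windows for 32 of the 42 genes, and 12 of these windows (35.3%) had the motif, against 8.86% of all 32851 windows. The element of estrogen-related receptors, TCAAGGTCA, was in neither window, in 0 of the 34 windows and in 0.423% of all windows; its shorter core AAGGTCA was in 0 of the 34 and in 4.72% of all. A GC box (GGGCGG) was in 22 of the 34 windows, Eif3l included and Polr2f not, against 35.7% of all. The CCAAT box (CCAAT) was found in 10 of the 34 windows, among them Eif3l, and in 37.4% of all. A TATA box (TATAAA) was in neither of the pair, in 4 of the 34 and in 13.6% of all. Both strands were searched. The median share of G and C was 58.7% in the 34 windows and 52.7% in all windows, and motifs were not compared at an equal share. These matches describe the letters only.

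Eif3l encodes the l subunit, one of the outer subunits of the eIF3 core. It lies on chromosome 15 from 79075179 to 79094405 (GRCm38, plus strand), and no exon of another annotated gene overlaps its exons. Control libraries 1 to 5 had 151, 197, 167, 164 and 151 CPM, and the libraries labelled cKO had 285, 296, 281, 294 and 291 CPM. The highest control, control 2, was well below the lowest library labelled cKO, and the groups did not overlap. The means were 166 ± 18.5 and 289 ± 6.44 CPM (SD, n = 5 each). This was a difference of 0.80 on the log2 scale (SE 0.0810), or 1.74-fold.

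Polr2f encodes a small subunit shared by all 3 polymerases. It lies on chromosome 15 from 79141009 to 79151774, on the plus strand, and 245 of its 2595 exonic bases overlap exons of 1700088E04Rik on the other strand. Controls 1 to 5 had 41.955, 60.049, 40.7, 36.0 and 38.4 CPM, and the libraries labelled cKO had 78.5, 82.4, 74.4, 74.7 and 78.5 CPM. Control 2 was again the highest control, and the groups did not overlap. The means were 43.4 ± 9.58 and 77.7 ± 3.31 CPM (SD, n = 5 each). The difference was 0.84 on the log2 scale (SE 0.120), or 1.79-fold. Without control 2 the log2 fold change was 0.97 for Polr2f and 0.86 for Eif3l.

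**Figure D1:**
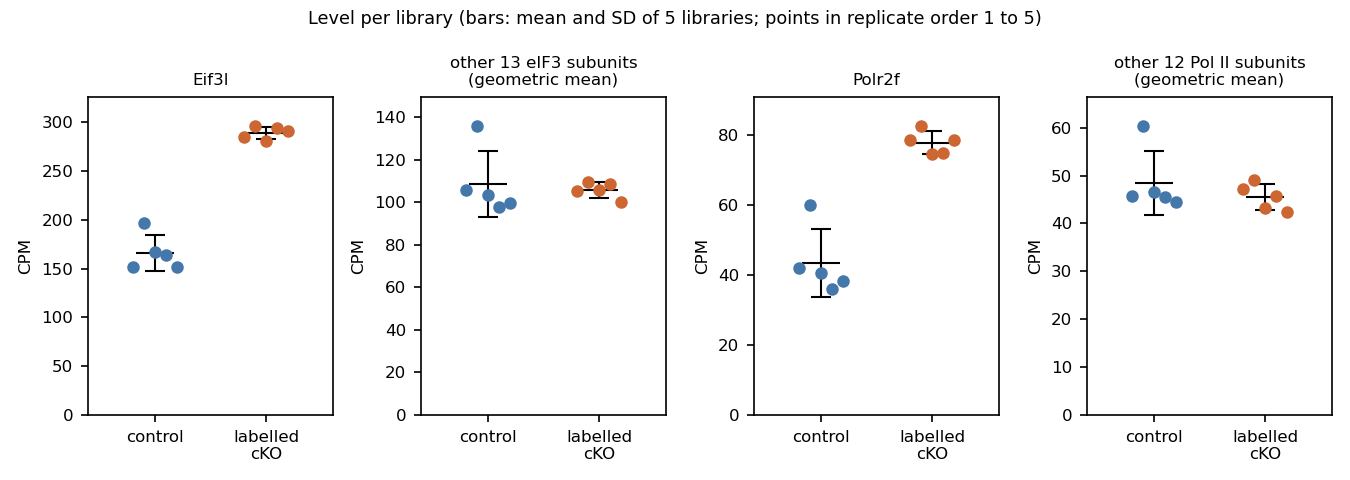
CPM per library of Eif3l, of the geometric mean of the other 13 eIF3 subunits, of Polr2f and of the geometric mean of the other 12 polymerase II subunits; points are single libraries in replicate order, bars the mean and SD of 5. The libraries labelled cKO lie at 281 to 296 CPM for Eif3l and 74.4 to 82.4 CPM for Polr2f, above all controls, while the means of the other subunits overlap between genotypes.

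None of the other subunits of the same complexes passed the test. Their median log2 fold change was -0.029 in eIF3 and -0.13 in polymerase II, and 0.050 and -0.011 without control 2. Of the 40 subunits other than Eif3l and Polr2f, 0 were called by edgeR at an adjusted p under 0.05, where 0.619% of all tested genes were (0.0725% higher and 0.546% lower). At an unadjusted p under 0.05 there was 1, Polr3d, which was lower, where 9.65% of all tested genes were (4.13% higher and 5.52% lower). DESeq2 and limma on FPKM called 0 of the 40, and limma-voom called Polr3d. None of the 40 had CPM values without overlap between genotypes, where 1.2% of all tested genes were higher and 1.64% lower without overlap. The median log2 fold change of the 40 was -0.048, with 9 above 0 and 31 below, beside -0.0072 for all tested genes, of which 48.3% were above 0. Without control 2 the median of the 40 was 0.0040, with 19 below 0. The number below 0 went from 10 to 2 of 13 in eIF3 and from 10 to 6 of 12 in polymerase II. It stayed at 8 of 10 in polymerase III and at 3 of 5 in polymerase I. For 39 of the 40 the 95% interval held 0. In eIF3 the upper bound that came closest to the value of Eif3l was 0.42, for the low gene Eif3j2, and in polymerase II the bound closest to that of Polr2f was 0.63, for Polr2a.

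**Figure D2:**
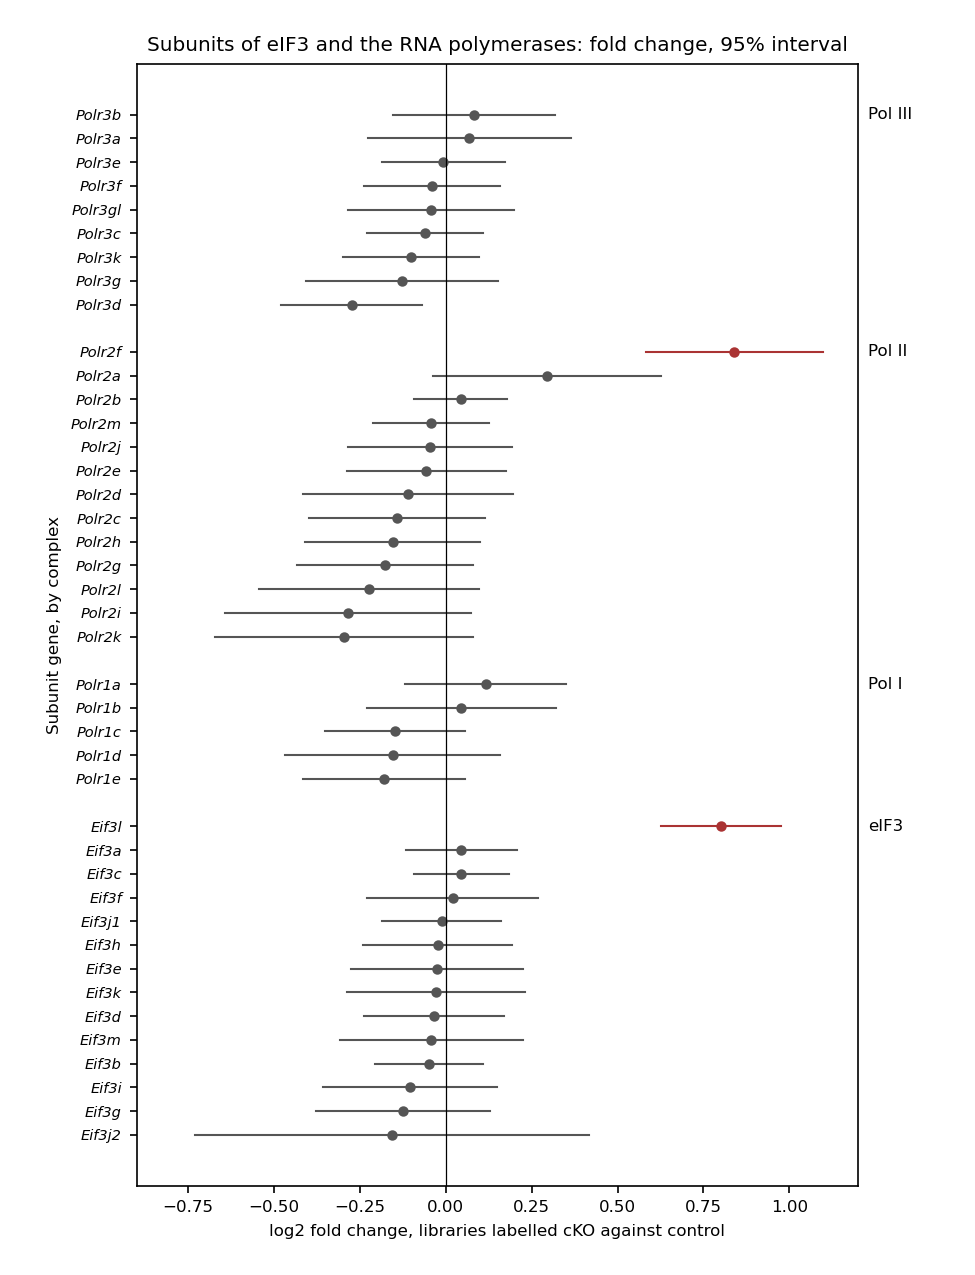
Log2 fold change of the libraries labelled cKO against control for 41 of the 42 subunit genes by complex, with 95% intervals (horizontal lines); red marks the picked genes Eif3l and Polr2f. Both lie at 0.80 and 0.84, and the others lie between -0.30 and 0.30.

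Set against the other subunits of their own complex in the same library, the picked genes did not overlap between genotypes. The ratio of Eif3l to the geometric mean of the other 13 eIF3 subunits was 1.43, 1.45, 1.61, 1.67 and 1.52 in controls 1 to 5, and 2.71, 2.70, 2.65, 2.70 and 2.90 in the libraries labelled cKO. Control 2, the highest control in CPM, had the second-lowest ratio of the controls, and the other subunits were high in it too. The ratio of Polr2f to the other 12 polymerase II subunits was 0.917, 0.996, 0.875, 0.791 and 0.863 in controls and 1.67, 1.68, 1.72, 1.63 and 1.86 in the libraries labelled cKO. The geometric mean of the others was 109 ± 15.5 against 106 ± 3.67 CPM for eIF3, and 48.5 ± 6.65 against 45.5 ± 2.78 CPM for polymerase II (SD, n = 5 each). These ratios rest on the contrast for which both genes were picked and carry no test.

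Levels between genes were compared per length, as FPKM. In controls the eIF3 subunits ran from 0.483 FPKM for Eif3j2 to 177 ± 26.3 FPKM for Eif3h, a subunit of the core, with a median of 44.7. Eif3f, which pairs with Eif3h in the core, followed at 131 ± 23.9, and Eif3c and Eif3a, the large scaffold subunits, at 69.8 ± 2.41 and 57.7 ± 1.12 (SD, n = 5 each). Eif3l was the 7th of 14 in controls, at 45.2 ± 4.77 FPKM, among Eif3m (46.8 ± 9.89), Eif3k (44.2 ± 9.51), Eif3g (41.9 ± 8.43) and Eif3i (41.3 ± 8.47), from which it did not differ beyond their spread. In the libraries labelled cKO it stood at 79.0 FPKM and was the 3rd, above Eif3c (72.3 FPKM). Its share of the summed FPKM of the 14 genes was 5.54% to 6.23% in controls and 9.38% to 10.4% in the libraries labelled cKO. Eif3e, Eif3d and Eif3j1 were the lower subunits, at 36.8, 14.1 and 8.78 FPKM in controls.

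Among the polymerase II genes Polr2m, which encodes Gdown1, a protein bound to part of the enzyme, was by far the highest, at 128 ± 11.0 FPKM in controls. The stalk subunits Polr2d and Polr2g followed at 53.8 ± 12.6 and 45.7 ± 8.88 FPKM, while Polr2c was the lowest at 7.51 ± 1.47 (SD, n = 5 each). Polr2f was the 11th of 13 in controls, at 16.6 ± 3.53 FPKM, beside its fellow shared subunits Polr2h (19.1 ± 3.55) and Polr2l (16.0 ± 4.18). In the libraries labelled cKO it was the 5th, at 29.8 FPKM, above Polr2e (25.1 FPKM), the shared subunit that was highest in controls. Its share of the summed FPKM of the 13 genes went from 3.48% to 4.37% in controls to 6.92% to 7.63%.

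In polymerase I the subunits shared with polymerase III were the higher ones, with Polr1d at 22.0 and Polr1c at 17.0 FPKM in controls, against 3.66 to 4.64 FPKM for Polr1a, Polr1b and Polr1e. The polymerase III subunits were between 2.32 FPKM (Polr3g) and 19.1 FPKM (Polr3k), with a median of 7.05. The paralogues Polr3g and Polr3gl, alternative versions of one subunit of which Polr3g is known from embryonic cells, were at 2.32 ± 0.371 and 17.3 ± 3.10 FPKM (SD, n = 5 each). The order of the 10 polymerase III genes by mean FPKM was the same in both genotypes.

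**Figure D3:**
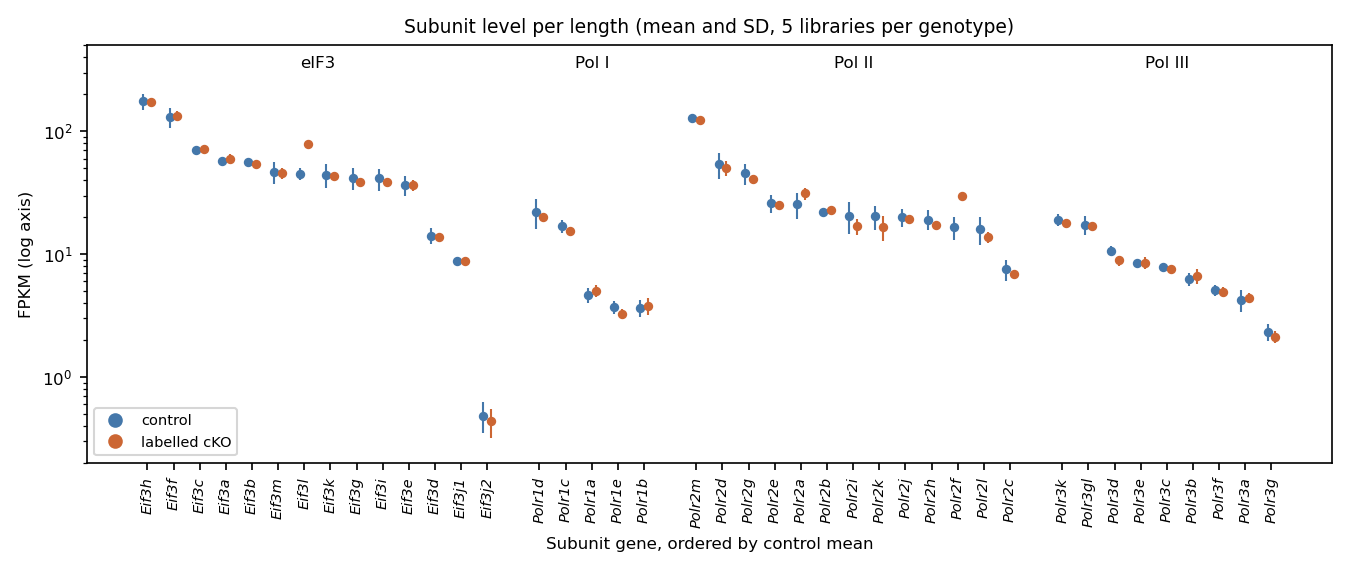
FPKM (log axis) of 41 of the 42 subunit genes in controls (blue) and in the libraries labelled cKO (orange), mean and SD of 5 libraries, ordered by the control mean within each complex. Eif3l moves from the 7th to the 3rd place of 14 and Polr2f from the 11th to the 5th of 13.

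The other eIF3 subunits are given by role. The 7 other core subunits had log2 fold changes between -0.042 (Eif3m) and 0.046 (Eif3a), with a median of -0.023. Without control 2 all 7 were above 0, between 0.037 and 0.14, with a median of 0.093. Eif3k, the direct partner of Eif3l, had 112, 168, 106, 111 and 106 CPM in the controls, against 126, 128, 113, 113 and 111 CPM in the libraries labelled cKO. Its log2 fold change was -0.029 (95% interval -0.29 to 0.23), or 0.11 without control 2, and the groups overlapped, with control 2 above all other libraries. Eif3a, which binds the small ribosomal subunit and had the highest value of the 13, went from 301, 302, 308, 299 and 295 CPM to 282, 294, 339, 341 and 299 CPM. The groups overlapped, with a log2 fold change of 0.046 (95% interval -0.12 to 0.21).

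Eif3b, Eif3g and Eif3i, which form a module at the messenger RNA entry side, had log2 fold changes of -0.050, -0.12 and -0.10, and none passed the test; without control 2 they had -0.019, 0.0025 and 0.030. Eif3d, the subunit that can bind the messenger RNA cap, had -0.034 (0.062 without control 2); 2151 of its 4968 exonic bases overlap a gene on the other strand. Eif3j is held loosely in the complex and is encoded by a pair of close paralogues whose reads may be split between them. Eif3j1 had 51.6 ± 4.07 and 51.2 ± 3.85 CPM (SD, n = 5 each). Eif3j2 had 1.40, 1.41, 1.102, 0.6097 and 1.28 CPM in the controls, against 0.899, 0.715, 1.39, 1.25 and 0.929 CPM in the libraries labelled cKO. Its log2 fold change of -0.16 was the lowest in eIF3, and at this level its interval was wide, from -0.73 to 0.42.

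Polr2f is 1 of 5 subunits that all polymerases share, and the other 4 each had a log2 fold change below 0: Polr2e -0.057, Polr2h -0.15, Polr2l -0.22 and Polr2k -0.30. None of these passed the test. Without control 2 the values were 0.054 for Polr2e, -0.036 for Polr2h, -0.052 for Polr2l and -0.16 for Polr2k. Polr2k, with the lowest log2 fold change of the complex, had 10.1, 17.7, 13.019, 11.5 and 11.6 CPM in the controls, against 12.7, 13.3, 7.96, 9.01 and 9.18 CPM in the libraries labelled cKO. The groups overlapped (95% interval -0.67 to 0.080, edgeR adjusted p = 0.622).

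Polr2a, the largest catalytic subunit, had the highest value of the other polymerase II genes. Controls 1 to 5 had 203, 106, 190, 192 and 215 CPM, and the libraries labelled cKO had 209, 195, 228, 217 and 264 CPM. Control 2 was far below all other libraries, and the remaining controls overlapped the libraries labelled cKO. The log2 fold change of 0.30 (SE 0.155, edgeR adjusted p = 0.578) was 0.14 without control 2. Polr2b, the other catalytic subunit, was steady at 103 ± 3.25 and 107 ± 4.59 CPM (SD, n = 5 each), with a log2 fold change of 0.044.

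The remaining polymerase II subunits had values below 0 over all libraries, of which Polr2d, Polr2j and Polr2m were above 0 without control 2 (0.038, 0.052 and 0.0056). The stalk pair Polr2d and Polr2g had log2 fold changes of -0.11 and -0.18, the assembly subunits Polr2c and Polr2j -0.14 and -0.046, and Polr2i, which takes part in proofreading, -0.28. Polr2m had -0.043, from 312 ± 29.1 to 303 ± 14.6 CPM (SD, n = 5 each). The median of the 12 was -0.13, with 10 below 0; without control 2 it was -0.011, with 6 below 0.

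In polymerase I, the catalytic subunits Polr1a and Polr1b had log2 fold changes of 0.12 and 0.046, and the assembly subunits Polr1c and Polr1d, shared with polymerase III, -0.15 and -0.15. Without control 2 Polr1b had -0.014 and Polr1d 0.029. Polr1a, with the highest log2 fold change of the 5, had 64.6, 43.2, 57.2, 54.8 and 57.7 CPM in the controls, against 58.5, 49.3, 66.1, 64.3 and 62.6 CPM in the libraries labelled cKO. Polr1e, an initiation subunit with the lowest, had 14.5, 17.7, 13.8, 13.6 and 13.044 CPM against 12.1, 11.7, 14.4, 13.8 and 12.1 CPM. Both genes overlapped between genotypes. The median of the 5 was -0.15, and -0.014 without control 2.

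In polymerase III, Polr3d was the only one of the 40 subunits at an unadjusted p under 0.05. It encodes a subunit that works with Polr3e in initiation and termination. Controls had 27.9, 31.5, 31.2, 35.1 and 28.3 CPM, and the libraries labelled cKO had 25.3, 24.8, 24.1, 23.2 and 29.9 CPM. In 4 libraries labelled cKO the level was below all controls, and replicate 5 lay within them. The difference of -0.27 on the log2 scale (SE 0.0956) did not pass the test (edgeR adjusted p = 0.346). It was -0.28 without control 2, and the adjusted p ran from 0.0459 (limma-voom) to 0.568 over the alternatives.

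Polr3b, one of the catalytic subunits, with the highest log2 fold change of this complex, had 37.4, 28.9, 32.0, 30.8 and 36.4 CPM in the controls, against 37.4, 26.9, 38.0, 37.7 and 35.2 CPM in the libraries labelled cKO, with a log2 fold change of 0.082. The catalytic partner Polr3a had 0.069, and -0.056 without control 2. The initiation subunits Polr3c, Polr3f and Polr3g had -0.061, -0.040 and -0.13, and Polr3gl -0.043 (0.069 without control 2). Polr3e and Polr3k had -0.0065 and -0.10. The median of the 10 was -0.052, and -0.055 without control 2.

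Control 2 stood apart for most of these genes. It was the highest of the 5 controls for 29 of the 40 subunits: 12 of 13 in eIF3, 10 of 12 in polymerase II, 3 of 5 in polymerase I and 4 of 10 in polymerase III. Its mean log2 CPM was 7.12 for the 13 eIF3 genes, where the other controls had 6.68 to 6.76 and the libraries labelled cKO 6.70 to 6.84. Without this library 16 of the 40 log2 fold changes had the opposite sign. There 2 of 13 eIF3 subunits were below 0, where 10 had been, with a median of 0.050. Across the 40 genes the log2 fold change was higher for genes of greater exonic length, with a Spearman rho of 0.64 (Pearson r with log10 length 0.64), and without control 2 the relation was weaker (rho 0.070, r 0.17). These are correlations across genes of the same 10 libraries, given as a description.

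**Figure D4:**
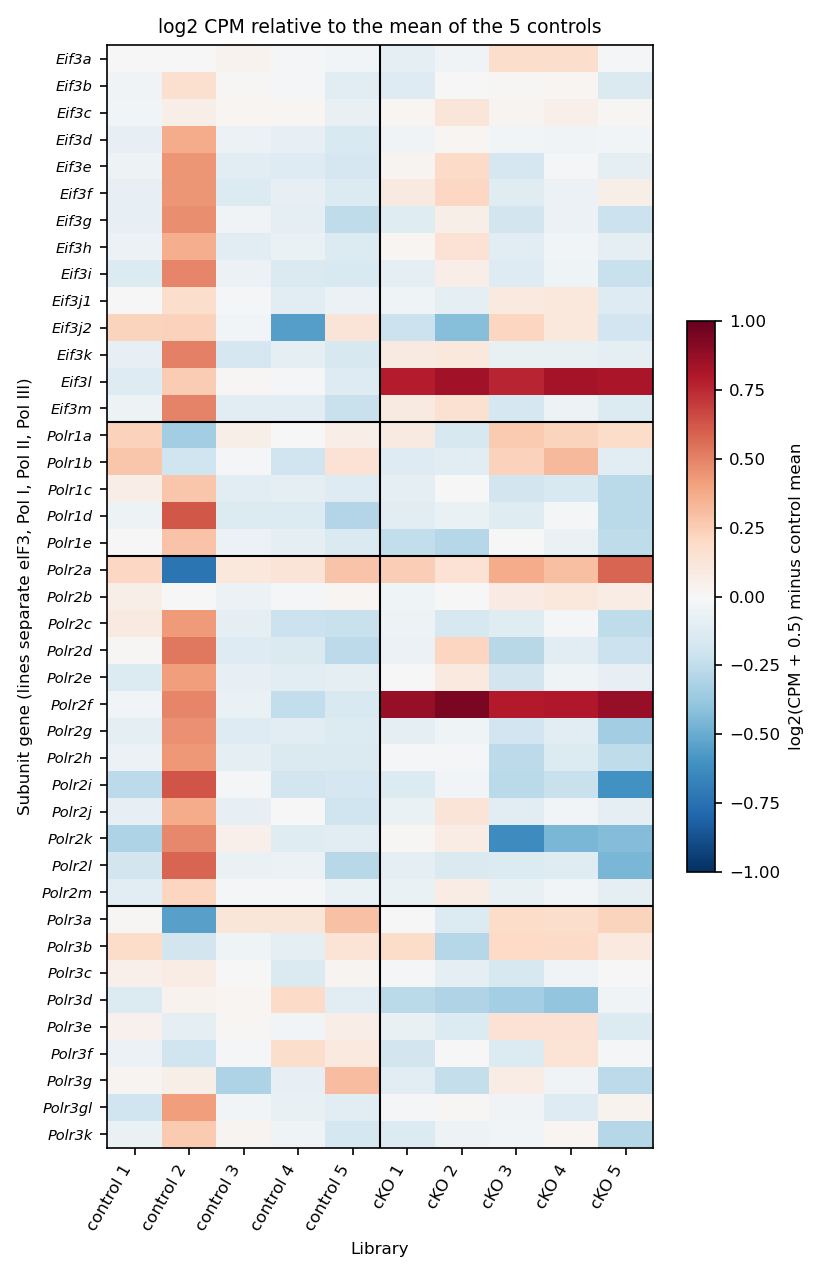
Log2(CPM + 0.5) of 41 of the 42 subunit genes (rows, by complex) in the 10 libraries (columns), minus the mean of the 5 controls. Eif3l and Polr2f are high in all 5 libraries labelled cKO, and control 2 is high for most of the other genes and the lowest of the controls for Polr1a, Polr2a, Polr3a, Polr3b, Polr3e and Polr3f.

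The picked genes were chosen beside Sox10, so the other members were placed on the same map. All members named in the next sentences lie on chromosome 15. Polr2f ends 3.13 kb from Sox10 and Eif3l 60.5 kb from it. Eif3d lies 1.18 Mb from it, with a log2 fold change of -0.034. Eif3h, Eif3e and Polr2k lie 27.3, 35.9 and 43.0 Mb away, with values of -0.023, -0.025 and -0.30. None of these 4 other members passed the test, and without control 2 Eif3d, Eif3h and Eif3e were above 0 (0.062, 0.070 and 0.093).

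Within 200 kb of Sox10, 18 genes were tested. The 3 called higher were Eif3l, Micall1 and Polr2f, where 0.0725% of all tested genes were; as the pair was picked from this contrast, the count is a description. These genes and 1700088E04Rik are consecutive among the tested genes on the side of the end of Sox10, which is transcribed from the minus strand. Micall1, which acts in endosome recycling, had 62.5, 33.3, 62.7, 62.4 and 62.2 CPM in the controls, against 113, 113, 121, 126 and 132 CPM in the libraries labelled cKO, a log2 fold change of 1.09 (SE 0.146, edgeR adjusted p = 0.00212). In control 2 it was the lowest, where Eif3l and Polr2f were the highest of the controls.

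1700088E04Rik, annotated as protein-coding on the minus strand, overlaps exons of both Micall1 and Polr2f. It had 2.61, 3.12, 2.41, 1.64 and 1.43 CPM in the controls, against 4.62, 4.63, 4.00, 3.27 and 3.72 CPM in the libraries labelled cKO. Its groups did not overlap, but the log2 fold change of 0.85 (SE 0.210) had an edgeR adjusted p of 0.117. The use of strand in counting is not given in the sources used here, so reads in the bases it shares with Polr2f cannot be assigned. Its counted level was below 5 CPM in every library, where the means of Polr2f were 43.4 and 77.7 CPM. These counts do not bound the reads that fall in the shared bases.

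Outside this stretch the values were smaller. Ankrd54, the tested gene next to Eif3l on the far side, had a log2 fold change of 0.055 (95% interval -0.16 to 0.27). Sox10 itself had 246, 211, 180, 188 and 198 CPM in the controls, against 235, 202, 246, 214 and 232 CPM in the libraries labelled cKO, overlapping, with a log2 fold change of 0.14 (95% interval -0.056 to 0.34). Across Sox10, Gm10863 had 0.16, Pick1 -0.17, Gm49486 -0.14, Slc16a8 0.043, Baiap2l2 -0.40, Pla2g6 0.080, Maff -0.093 and Tmem184b 0.18. On the side of Eif3l, Triobp had 0.23, Gcat -0.23, H1f0 -0.15 and Gm49544 -0.078. None of these 14 passed the test; Triobp, Baiap2l2 and Tmem184b had an unadjusted p under 0.05, of 0.0102, 0.0115 and 0.0439 by edgeR.

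**Figure D5:**
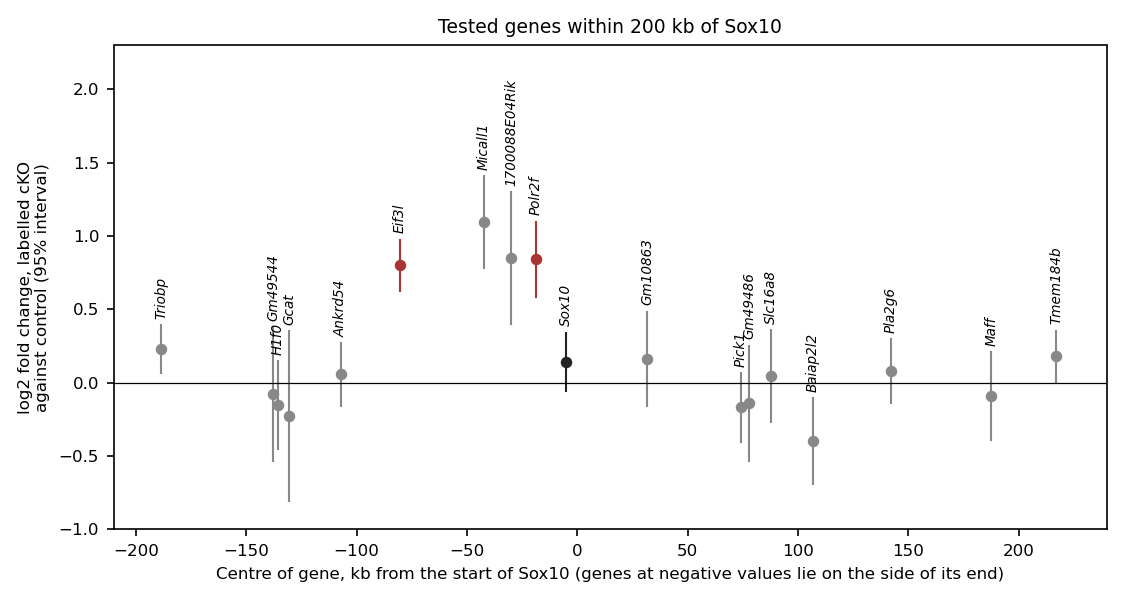
Log2 fold change (95% interval, vertical lines) of the 18 tested genes within 200 kb of Sox10, by the distance of the gene's centre from the start of Sox10 in kb; red marks Eif3l and Polr2f, black Sox10. Eif3l, Micall1, 1700088E04Rik and Polr2f lie at 0.80 to 1.09, and the others between -0.40 and 0.23.

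Genes that work with these complexes were listed with earlier results of these data known, and not by their values. Of 92 tested genes on 5 lists, 0 were called by edgeR and 7 had an unadjusted p under 0.05, which is 7.61% against 9.65% of all tested genes. The 32 other translation initiation factors had a median log2 fold change of -0.057, with 10 above 0 and 22 below. Among them Eif4b, a helper of the initiation helicase, had the highest log2 fold change, 0.19 (472 ± 22.7 and 537 ± 51.3 CPM), and Mcts1, a factor of reinitiation, the lowest, -0.29 (25.8 ± 4.84 and 21.2 ± 1.22 CPM; SD, n = 5 each).

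The 33 tested general factors of polymerase II had a median of -0.051, from -0.31 for Taf13, a subunit of the TFIID complex, to 0.19 for Taf4, another of its subunits. The 6 polymerase I factors had a median of -0.020, from -0.19 for Taf1d to 0.040 for Ubtf, and the 17 polymerase III factors one of -0.016, from -0.22 for Snapc5 to 0.22 for Bdp1. The 4 polymerase subunits that the annotation gives under other symbols were Twistnb, Cd3eap, Znrd1 and Crcp. All 4 were below 0, from -0.20 for Znrd1 to -0.0049 for Cd3eap, with 0 at an unadjusted p under 0.05 by edgeR.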

How the data were processed

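Poly(A)-selected RNA was sequenced as paired reads of 150 bp, per the labels' protocols. The authors deposited whole-number counts per Ensembl gene and FPKM values (scaled to gene length and library size); mm10, STAR 2.5, HTSeq 0.61 and DESeq2 are named, without roles, per the submitters' processing notes. Annotation and use of strand are not given in the sources used here. Symbols, positions and overlaps came from GENCODE M21 (GRCm38), which held 54495 of 54532 identifiers and whose exonic lengths were within 0.1% of those the FPKM values imply for 95.3% of 13928 well-counted genes. Promoter sequences are from RefSeq.

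Counts were filtered with filterByExpr (minimum 10), scaled by TMM and tested with edgeR 4.0.16 (quasi-likelihood, robust, genotype only; R 4.3.3), adjusted by Benjamini-Hochberg over 17937 genes and called under 0.05. CPM are TMM-scaled; SEs derive from the F statistic. The fit was tested on simulated data. DESeq2 1.42.0, limma 3.58.1, other filters, scalings and left-out libraries were alternatives. No batch is given in the labels. P-values set the difference between genotypes against the spread between animals, with 5 per genotype. The estimate of that spread for each gene also draws on the other tested genes.

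The members and lists were chosen with earlier results of these data known. All members could be named, but 1 is not reported singly here or drawn, and counts in its complex include it; values per library are given for Eif3l, Polr2f, members at an unadjusted p under 0.05 and the highest and lowest of each complex. In the other lists genes past the test and the highest and lowest were to be named, and around Sox10 all tested genes. Eif3k, Polr2b and other single subunits with CPM were picked by role after their values were seen.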

Additional observations from a re-analysis of the deposited data

Results flagged for a closer look

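For the 42 subunits and the 2 ratios, the 5 libraries of each genotype were examined for 1 library far from the other 4 (Dixon's test, critical value 0.71). By chance 4.4 of the 88 groups (about 1 in 20) would show such a library. In these data 23 did, 19 of them through control 2. The groups share the same 10 libraries and are not independent, so 1 library can raise many of them. The count is therefore a description. In eIF3, control 2 had 91.0 CPM for Eif3d (others at most 67.6), 335 for Eif3e (238), 512 for Eif3f (357), 114 for Eif3g (80.6), 367 for Eif3h (274), 213 for Eif3i (146), 168 for Eif3k (112) and 170 for Eif3m (116). Among the polymerase genes it had 102 CPM for Polr1d (others at most 63.5), 73.5 for Polr2d (51.3), 92.8 for Polr2e (65.5), 60.05 for Polr2f (41.955), 54.5 for Polr2g (37.1), 39.1 for Polr2h (27.6), 38.0 for Polr2i (24.2), 39.2 for Polr2l (25.1), 362 for Polr2m (308) and 37.0 for Polr3gl (26.9). Polr2a was low in it, at 106 CPM against at least 190 in the others. The remaining cases were Polr2l in cKO 5 (18.9 CPM, others at least 23.6), Polr3b in cKO 2 (26.9 CPM, others at least 35.2), Eif3d in cKO 2 (71.3 CPM, others 68.7 to 68.8) and the ratio of Eif3l to the other subunits in cKO 5 (2.90, others 2.65 to 2.71). What lies behind control 2 was not tested.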

How the results depend on the processing

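Eif3l and Polr2f kept their direction under all alternatives tried, with log2 fold changes of 0.77 to 0.86 and 0.78 to 0.97 when 1 library was left out. Both were picked for this rise and did not overlap between genotypes, so the kept direction is a description and no support. Of 800 values of the other 40 subunits under 20 alternatives each, 799 kept their side of the threshold, or changed sign without being called; Polr3d passed it with limma-voom (-0.34, adjusted p 0.0459), the 1 lower subunit called there against 0. Over all genes DESeq2 called 54 higher and 253 lower and limma-voom 74 and 362, where edgeR called 13 and 98. An adjusted p under 0.1 gave 24 higher. With 1 library left out the higher calls ran from 8 (without control 3, and without cKO 5) to 19 (without control 2), and the lower calls from 44 (without control 3) to 178 (without control 2); they were also over 1.5 times fewer without control 1 (51), control 4 (59), control 5 (60), cKO 2 (53), cKO 4 (55) and cKO 5 (47). The medians ran from -0.071 to 0.050 for eIF3, -0.18 to -0.014 for polymerase I, -0.18 to -0.011 for polymerase II and -0.084 to -0.044 for polymerase III; with limma-voom, which weights libraries, they were 0.054 for eIF3, 0.029 for polymerase I, -0.0094 for polymerase II and -0.010 for polymerase III. The cause was not tested. Replicate numbers are shared by the genotypes, but the correlation of deviations passed 0.1 in 3 of 5 same-numbered pairs (4 above 0, range -0.012 to 0.24), and 3 of 5 controls correlated best with their own number. With the replicate block 18 genes were called higher and 83 lower, 0 of the 40 subunits was called, and the log2 fold changes were 0.81 for Eif3l and 0.86 for Polr2f. Depth limits Eif3j2 most, at 22 to 60 counts.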
